A study of Mus musculus with 24 samples.

Results

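Liver transcripts of 6 mice fed 1.0% quercetin were compared with those of 6 mice on the control diet, gene by gene over 18193 genes. The 12 arrays were chosen by their diet label alone and form part of a set of 24 that also holds 6 mice at 0.1% and 6 at 0.5% quercetin. The animals were BALB/c males, 6 weeks old when bought, kept 3 to a cage with darkness from hour 8 to hour 20, and given a nonpurified diet for a week before the study. The control group then ate AIN93G, a purified rodent diet, for 14 days, and the 1.0% group ate the same AIN93G with 1.0% quercetin added. Livers were taken under pentobarbital and the RNA of each mouse went onto its own Affymetrix mouse array. The cage of each mouse is not named in the labels, so cage and diet cannot be told apart. The hour of killing is not given in the sources used here.

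Quercetin is a plant flavonol that the gut and liver conjugate quickly to glucuronides, sulfates and methyl ethers, so the liver meets the compound and its conjugates first. Polyphenols can bind metal ions, and in cultured cells quercetin has been linked to antioxidant genes under Nrf2, to the aryl hydrocarbon receptor and to the sirtuin and AMPK pathways. The liver itself sets plasma levels of acute phase proteins, bile salts, glucose and lipids, and many of its transcripts follow the feeding cycle through the circadian clock.

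Levels are quantile-normalized log2(intensity + 1), a scale that understates the change of dim genes. A difference is the mean at 1.0% minus the mean of control on that scale, with its standard error (SE) from a limma fit of all 24 arrays. An adjusted p is the Benjamini-Hochberg value over the 18193 genes from that fit, and a p called unadjusted is the same test before adjustment. Groups are called separated where every array at 1.0% lay above, or every one below, all 6 control arrays. The tissue is whole liver, where fewer cells of a type and less RNA per cell cannot be told apart. Pathway genes are counted over 37 gene lists and cell type markers over 11, with 823 of 904 list genes measured.

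Some arrays stood apart before any gene was compared. On the first principal component, which held 9.15% of the variance, 1.0% replicates 4 and 5 and 0.5% replicates 4 and 6 lay 6.1 to 8.18 median absolute deviations from the median of the 24. On the second component, with 5.91% of the variance, 1.0% replicate 2 lay 13.9 such deviations away, and its 75th-percentile intensity of 17.9 was the lowest of the series, against 19.3 to 32.6 elsewhere. Key differences are therefore also given without the 4 arrays apart on the first component. Of the 178 genes named here with a difference, 44 had one smaller by over 1.5 times without those arrays, sign changes included, and 8 one larger by as much. Of 45 genes with another probe set within 1 log2 unit of brightness, that probe set had the opposite sign for 8. The ratio of 3' to 5' signal of the beta-actin control probe sets, a sign of RNA integrity, ran from 1.76 to 2.08 in control and from 1.84 to 2.28 at 1.0%. The defining hepatocyte markers, among them albumin and transthyretin, had a mean level of 12.56 to 12.75 in control and 12.51 to 12.68 at 1.0%, so the samples were liver by their markers.

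Few single genes passed the threshold at 1.0%: 3 genes rose and 1 fell at an adjusted p under 0.05. The share called higher was 0.0165% of the genes tested and the share called lower 0.0055%. At an unadjusted p under 0.05, 810 genes were higher (4.45%) and 813 lower (4.47%). The groups were separated upward for 73 genes (0.401%) and downward for 72 (0.396%). These shares of all genes are the background for every count of list members below. Whatever their p, 8802 of the 18193 genes were higher and 9391 lower. The median difference over all genes was -0.01, and 9878 genes had a mean level under 4, where the scale compresses change. Without normalization between arrays 31 genes were separated upward and 3 downward, and with centring on array medians 32 and 65. The balance of directions among separated genes thus depended on the normalization.

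**Figure D1:**
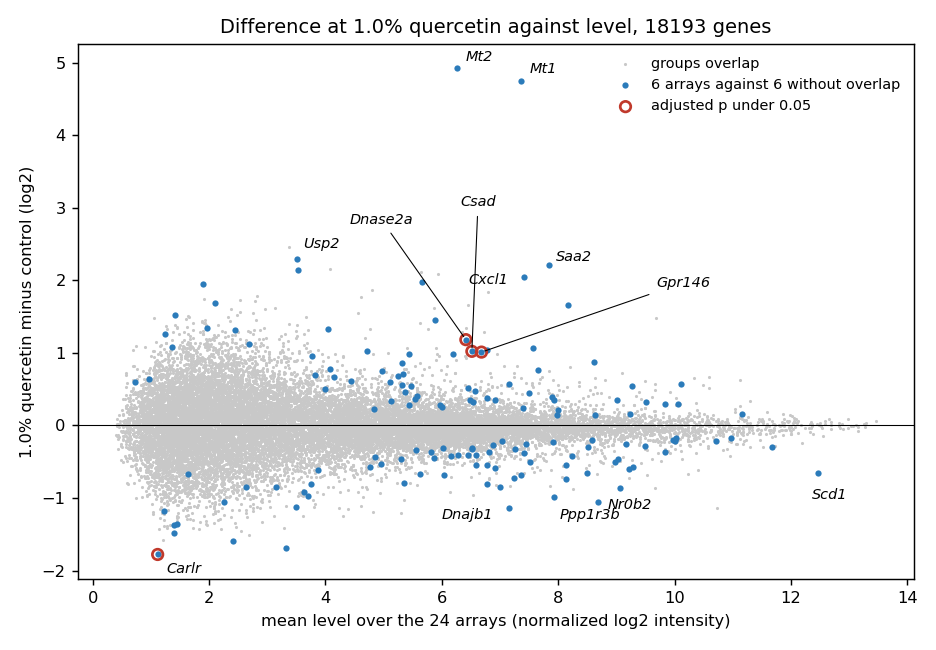
Difference between 1.0% quercetin and control (log2) against the mean level of each gene over 24 arrays (normalized log2 intensity), for 18193 genes. Blue points are the 145 separated genes and red rings the 4 genes at an adjusted p under 0.05. Mt1 and Mt2 stand far above all others, at 4.75 and 4.92, while the scatter of dim genes on the left reaches beyond 1 in both directions.

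Gpr146 (chromosome 5, 139377697 to 139396415, GRCm38.p6) encodes a G protein-coupled receptor whose loss in mouse liver lowers plasma cholesterol. Its lowest, median and highest levels were 6.06, 6.18 and 6.59 in control and 6.77, 7.23 and 7.60 at 1.0%. No array of one group reached the other, and 1.0% replicates 1, 3 and 6, none of which stood apart, read 7.08, 7.26 and 6.77. Gpr146 rose by 1.01 (SE 0.15, 2.02-fold, adjusted p = 0.00607), and 3 of its 4 probe sets gave 0.93 to 1.05, the dim one 0.08. Its difference from control was 0.11 at 0.1% quercetin and 0.66 at 0.5%. The 3 dose comparisons share the same 6 control arrays, and differences between doses were not tested.

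Csad (chromosome 15, 102176997 to 102205052) encodes cysteine sulfinic acid decarboxylase, the enzyme that commits cysteine carbon to taurine. Control arrays held 6.15, 6.23 and 6.47 as lowest, median and highest level and the arrays at 1.0% held 6.91, 7.22 and 7.89. The lowest array at 1.0% lay above the highest control array, and the highest was replicate 4. Csad rose by 1.02 (SE 0.15, 2.03-fold, adjusted p = 0.00607), while the differences at 0.1% and 0.5% were -0.04 and 0.03. Among 23 measured genes of taurine, cysteine and one-carbon metabolism, 9 were higher and 14 lower, with a list median of -0.04. Cysteine dioxygenase, Cdo1, which makes the substrate of Csad, differed by 0.07 (adjusted p = 0.897). The taurine transporter Slc6a6 differed by -0.31 (adjusted p = 0.618). Besides Csad, Mtrr, which reactivates methionine synthase, was higher by 0.44 and Shmt1, which moves carbon from serine to folate, differed by -0.38, both only at an unadjusted p under 0.05 (0.41 and -0.16 without the arrays apart).

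Dnase2a (chromosome 8, 84908755 to 84911703) encodes the acid DNase that digests DNA in lysosomes. Its lowest, median and highest levels in control were 5.70, 5.99 and 6.12. At 1.0% they were 6.46, 7.07 and 7.74, again without overlap, with replicates 4 and 5 at the top. Dnase2a rose by 1.18 (SE 0.18, 2.27-fold, adjusted p = 0.00607) and differed by 0.34 and 0.36 at the lower doses. Of 28 lysosomal genes measured, Dnase2a included, 11 were higher, and the list median was -0.05. At an unadjusted p under 0.05, 4 were higher and 2 lower, beside 4.45% and 4.47% of all genes. Grn, which encodes progranulin, a lysosomal and secreted glycoprotein, was separated, from 8.45, 8.92 and 9.10 in control to 9.14, 9.22 and 9.34 at 1.0% (difference 0.35, adjusted p = 0.323). Hexa and Ctss, a hexosaminidase subunit and cathepsin S, were higher by 0.24 and 0.26. Gaa, the acid glucosidase that degrades glycogen in lysosomes, differed by -0.28, but by 0.04 in a probe set of like brightness. Tfeb, the master regulator of lysosomal genes, differed by -0.78.

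Carlr, a long non-coding RNA, was the gene that fell, with levels of 1.89, 2.24 and 2.75 in control and 0.25, 0.45 and 1.13 at 1.0% (adjusted p = 0.00607). These levels lie near the floor of the array, with only 5.7% of genes dimmer, so no size is given. None of the 4 calls held without the arrays apart on the first component, where Gpr146, Csad and Dnase2a each had an adjusted p of 0.104 and Carlr 0.113. The differences of the first 3 were then 0.94, 0.85 and 0.90. That fit has 2 mice fewer at 1.0% and 2 fewer at 0.5%, and 1475 genes had an unadjusted p under 0.05 in it. With all arrays but control replicate 3 or control replicate 5, 5 genes rose, and with all but control replicate 1, control replicate 5 or 1.0% replicate 6, 2 fell.

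Next to the threshold came Sdr39u1, a short-chain dehydrogenase gene, with levels of 5.01, 5.26 and 5.36 in control and 4.55, 4.71 and 4.91 at 1.0% (difference -0.53, SE 0.10, adjusted p = 0.0544). All 6 arrays at 1.0% lay below all control arrays. The separated genes with the smallest p among those lower also included Pnrc1, a nuclear receptor coactivator gene (-0.65), the transcription factor gene Zeb2 (-0.92, and -0.14 by its next brightest probe set), the ubiquitin ligase genes Trim2 (-0.55) and Siah2 (-0.80, and -0.18 by its next brightest), the mRNA decay factor gene Zfp36l1 (-0.60) and the coactivator gene Crebbp (-0.42). Their adjusted p ran from 0.193 to 0.265. Among those higher were Fbxo31, a ubiquitin ligase subunit gene (0.98), Mknk2, a kinase of the translation factor eIF4E (1.07), Nlrc5, the transactivator of MHC class I genes (0.78), and the RNA helicase gene Ddx52 (0.56, but 0.09 by a probe set of like brightness), at adjusted p from 0.223 to 0.265. No gene of this paragraph passed the adjusted test.

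The metallothionein genes had the largest differences of all 18193 genes. Metallothioneins are small cysteine-rich proteins that bind zinc and copper, and the zinc-sensing factor MTF1 drives them through short metal response elements near the transcription start. The starts of both genes are shown because these elements sit there: 300 bases each, from 250 before the start to 50 after it, from RefSeq on GRCm38.p6. Capitals mark TGCACNC or TGCGCNC on either strand, the core of the element. Mt1 lies on the plus strand at chr8:94178839-94179138 and Mt2 on the plus strand at chr8:94172368-94172667.
Mt1: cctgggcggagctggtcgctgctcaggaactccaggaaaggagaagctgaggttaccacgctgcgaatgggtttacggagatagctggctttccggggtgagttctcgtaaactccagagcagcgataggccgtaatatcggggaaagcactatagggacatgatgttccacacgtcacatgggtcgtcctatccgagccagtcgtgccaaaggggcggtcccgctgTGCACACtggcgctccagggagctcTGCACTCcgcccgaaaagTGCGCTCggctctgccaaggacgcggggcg
Mt2: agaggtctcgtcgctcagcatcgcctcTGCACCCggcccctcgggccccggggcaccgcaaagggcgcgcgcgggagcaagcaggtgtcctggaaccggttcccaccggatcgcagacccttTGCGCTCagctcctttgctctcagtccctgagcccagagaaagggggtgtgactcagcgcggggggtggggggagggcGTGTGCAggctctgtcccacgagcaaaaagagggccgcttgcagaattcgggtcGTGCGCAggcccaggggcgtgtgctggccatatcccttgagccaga
A search found 3 matches in the Mt1 sequence and 4 in that of Mt2. Over 32851 mouse promoters of the same length, 1.97% held at least 3 matches and 0.517% at least 4. The same search found 3 matches at the start of Slc30a10 and 2 at that of Slc30a1, transporter genes described next. A match describes letters and is not evidence of binding.

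Mt1 stood at 4.67, 5.30 and 5.83 (lowest, median and highest) in control and at 7.47, 10.02 and 12.62 at 1.0%. Every mouse on 1.0% lay above every control mouse, and replicates 4 and 5, at 12.46 and 12.62, were the highest. The difference was 4.75 (SE 1.17, 26.9-fold), and with this spread between mice the adjusted p was 0.265. The only other Mt1 probe set, dim at a mean level of 2.45, gave 0.51. Mt2 ran from 3.33, 4.13 and 4.95 in control to 6.10, 9.07 and 12.11 at 1.0%, again separated, with a difference of 4.92 (SE 1.31, adjusted p = 0.313). Within the 1.0% group the mice took the same order for both genes but for replicates 2 and 3, the lowest. Without the arrays apart on the first component the differences were 3.49 and 3.47. At 0.1% quercetin Mt1 and Mt2 differed from control by 0.45 and 0.14, and at 0.5% by 3.18 and 3.33.

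Metal transporter genes had smaller differences, in both directions. Slc39a14, a zinc and manganese importer of hepatocytes, was separated upward, from 7.15, 7.33 and 7.47 to 7.65, 7.83 and 9.13 (difference 0.76, adjusted p = 0.365, and 0.43 without the arrays apart), with 1.0% replicate 5 highest. Slc30a10, a manganese exporter, was separated downward, from 6.69, 6.95 and 7.32 to 6.16, 6.40 and 6.68 (difference -0.54, adjusted p = 0.263). The zinc exporter gene Slc30a1, another known MTF1 target, differed by 0.24 (adjusted p = 0.71). Of 14 genes of metal binding and transport, 10 were higher, 3 of them separated, beside 0.401% of all genes separated upward. The list median was 0.17, or 0.06 without the arrays apart on the first component.

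**Figure D2:**
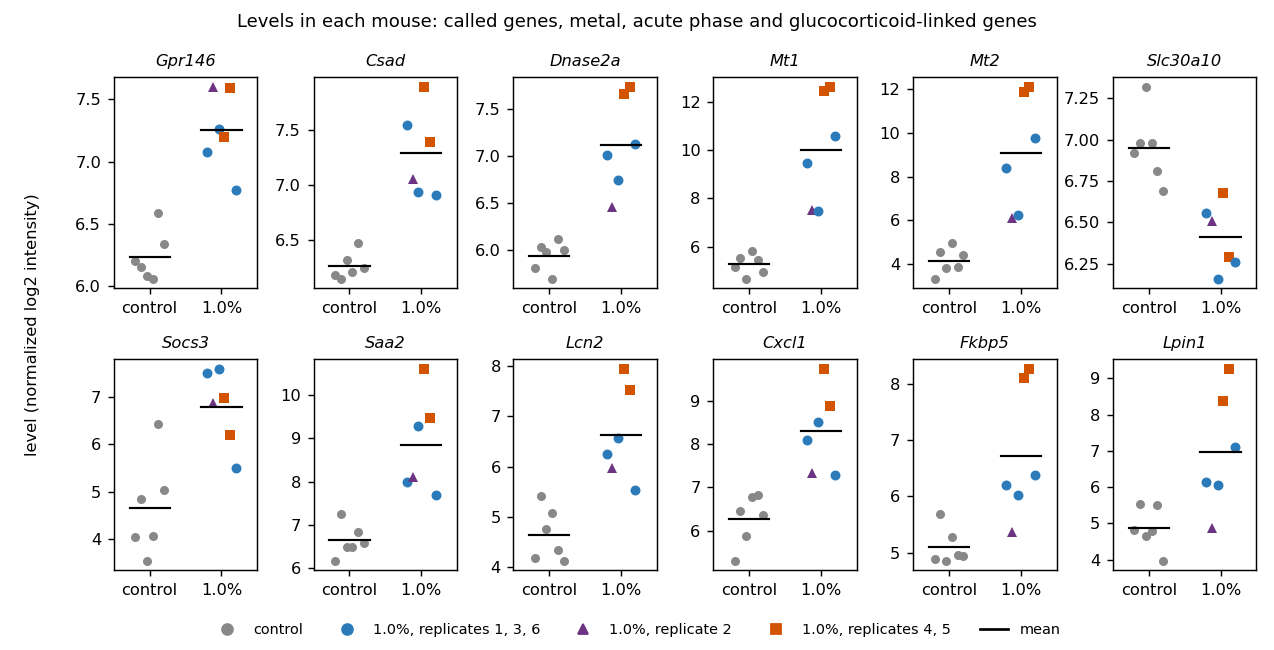
Level of 12 genes in each mouse (normalized log2 intensity), with 6 control mice on the left and 6 mice at 1.0% on the right of each panel. Squares mark 1.0% replicates 4 and 5, the triangle 1.0% replicate 2, and bars the group means. Replicates 4 and 5 lead for Mt1, Mt2, Fkbp5 and Lpin1, while for Gpr146 and Socs3 they lie among the other mice.

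Most serum amyloid and other acute phase transcripts lay higher at 1.0%. Hepatocytes make these plasma proteins when interleukin-6 signals through STAT3, and SOCS3 is the feedback inhibitor that STAT3 induces. Of 25 acute phase genes measured, 20 were higher and 5 lower, with a median difference of 0.15 beside -0.01 for all genes. At an unadjusted p under 0.05, where 4.45% of all genes were higher and 4.47% lower, 7 were higher and 2 lower. Beside 0.401% of all genes, 5 were separated upward. None passed the adjusted test. Without the arrays apart on the first component the median was 0.05, with 7 higher and 1 lower at that p.

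Saa2, which encodes serum amyloid A2, read 6.17, 6.54 and 7.25 in control and 7.68, 8.69 and 10.60 at 1.0%, as lowest, median and highest level. The groups did not overlap, and replicate 4 was highest. Its difference was 2.21 (SE 0.68, adjusted p = 0.365) and 1.62 without the arrays apart. Lcn2, a siderophore-binding lipocalin gene, went from 4.13, 4.55 and 5.41 to 5.53, 6.41 and 7.94 without overlap (difference 1.97, adjusted p = 0.415). Steap4, a metalloreductase gene, went from 7.08, 7.21 and 7.49 to 7.77, 8.43 and 10.49, also without overlap, with replicates 4 and 5 far above the others (difference 1.66, 0.88 without the arrays apart on the first component). Serpina3n, a protease inhibitor gene, and Saa3 were separated at smaller differences of 0.58 and 0.68, or 0.27 and 0.59 without those arrays. Saa1 was higher by 1.48 with a slight overlap (0.95 without those arrays) and Saa4 by 0.52.

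Other acute phase genes differed less or lay lower. Orm2, an orosomucoid gene, was higher by 0.65 with overlap, Hp, haptoglobin, by 0.15, neither at an unadjusted p under 0.05. Ceruloplasmin, Cp, differed by -0.20 and Pigr, the transporter of IgA into bile, by -0.38, both lower at an unadjusted p under 0.05. Coagulation and complement genes, which hepatocytes also secrete, were mostly lower by small amounts, 24 of 30. Their median was -0.07, or -0.004 without the arrays apart. Factor X, F10, was separated downward, from 10.02, 10.11 and 10.14 to 9.75, 9.92 and 9.96 (difference -0.22, adjusted p = 0.365), and Mbl2, the mannose-binding lectin of complement, differed by -0.26.

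Upstream of these proteins, 15 of 17 genes of the interleukin-6 and STAT3 list were higher, with a median of 0.36, the highest median of the 37 pathway lists, and 0.31 without the arrays apart. The start of Socs3 (minus strand, chr11:117969317-117969616, RefSeq, GRCm38.p6) is shown because the letters of a STAT motif lie in it. Capitals mark TTCNNNGAA, the letters STAT dimers recognise, which reads much alike on both strands.
Socs3: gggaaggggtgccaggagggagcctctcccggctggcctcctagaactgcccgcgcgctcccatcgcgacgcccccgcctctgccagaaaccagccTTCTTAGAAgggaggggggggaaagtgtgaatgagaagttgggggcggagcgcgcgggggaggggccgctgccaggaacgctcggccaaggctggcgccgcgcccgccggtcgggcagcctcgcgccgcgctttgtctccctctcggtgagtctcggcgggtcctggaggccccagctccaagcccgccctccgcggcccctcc
It held 1 match, the starts of Saa1, Saa2, Lcn2 and Cxcl1 held 0, and 8.3% of the 32851 promoters held at least 1. Socs3 itself read 3.55, 4.47 and 6.42 in control and 5.51, 6.93 and 7.59 at 1.0%. The groups overlapped only through control replicate 5, at 6.42, which lay above 2 mice on 1.0%. The difference was 2.11 (SE 0.47, adjusted p = 0.223), and 2.20 without the arrays apart. Without control replicate 5 alone Socs3 passed the adjusted test in limma (adjusted p = 0.0405). Of the others, Bcl3, an IkB-family cofactor gene, was higher by 1.07 (0.69 without the arrays apart), Cebpb, an acute phase transcription factor gene, by 0.80 (0.44, with replicates 4 and 5 highest), Irf1 by 0.36 and the kinase gene Pim1 by 0.31, each at an unadjusted p under 0.05. Il6 transcripts lay near the floor and differed by -0.27.

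Cxcl1, which encodes a neutrophil-attracting chemokine, was separated, with 5.29, 6.41 and 6.82 in control and 7.30, 8.31 and 9.75 at 1.0% (difference 2.05, SE 0.76, adjusted p = 0.435). It was the 1 member of 26 NF-kB and cytokine genes with an unadjusted p under 0.05; 13 of the 26 were higher, 20 had a mean level under 4, and the list median was -0.03. Tnf differed by -0.52 (adjusted p = 0.795). Of 10 neutrophil markers 9 were higher, 0 of them at an unadjusted p under 0.05, and their mean level ran from 2.40 to 2.82 in control and from 2.87 to 3.34 at 1.0%, with 8 of 10 markers at a mean level under 4. The calprotectin genes S100a8 and S100a9 were higher by 0.95 and 0.78, with overlap and at adjusted p of 0.607 and 0.658, and by 0.41 and 0.45 without the arrays apart. The part of these cells in the acute phase differences was not tested. Markers of Kupffer cells had a mean level of 5.88 to 6.15 in control and 5.86 to 6.20 at 1.0%.

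Interferon and antigen presentation genes were higher in 18 of 26 cases, with a median of 0.10. Only 1 of the 26 was higher at an unadjusted p under 0.05, where 4.45% of all genes were. That gene, H2-Eb1 of MHC class II, went from 5.08, 5.15 and 5.36 to 5.25, 5.79 and 6.10 (difference 0.58, adjusted p = 0.322).

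Some glucocorticoid-linked genes were higher in part of the mice only. Adrenal glucocorticoids act in liver through the receptor Nr3c1, and Fkbp5, which feeds back on that receptor, is a usual readout. Fkbp5 read 4.86, 4.96 and 5.69 in control and 5.37, 6.29 and 8.26 at 1.0%, with replicates 4 and 5 at 8.10 and 8.26 and replicate 2, at 5.37, inside the control range (difference 1.62, adjusted p = 0.365, 0.89 without the arrays apart). Lpin1, a phosphatidate phosphatase and coactivator gene, was also led by replicates 4 and 5, at 8.37 and 9.26 (difference 2.09, adjusted p = 0.417, 1.17 without them and the 0.5% arrays apart). Zbtb16 was higher by 1.41 (0.78 in that fit) and Klf9 by 0.39, both transcription factor genes. Of 18 genes, 12 were higher, with a median of 0.36. At an unadjusted p under 0.05, where 4.45% of all genes were higher and 4.47% lower, 6 were higher and 1 lower. Those 6 include Mt1 and Mt2, already described with the metal genes. When the arrays apart were left out the median was 0.26, with 5 higher and 4 lower. Others of the list lay lower: Dusp1, a phosphatase of MAP kinases, was separated downward, from 8.87, 9.21 and 9.57 to 7.29, 8.50 and 8.76 (difference -0.86, adjusted p = 0.396), Tsc22d3 differed by -0.45 and the tyrosine aminotransferase gene Tat by -0.38.

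Nr0b2 and most genes of bile salt transport lay lower. Nr0b2, also called SHP, is induced by the bile acid receptor FXR and represses bile acid synthesis. It read 8.54, 9.25 and 9.55 in control and 7.61, 8.10 and 8.43 at 1.0%, so that the highest mouse on 1.0% stayed below the lowest control mouse. Its difference was -1.05 (SE 0.25, adjusted p = 0.263), and -1.05 without the arrays apart. Abcb11, the bile salt export pump and another FXR target, went from 9.84, 10.06 and 10.20 to 9.52, 9.67 and 9.97 with an overlap of 1 mouse on 1.0%, replicate 2 (difference -0.35, adjusted p = 0.265). The uptake transporter gene Slc10a1 differed by -0.25 and the flippase gene Atp8b1 by -0.31, or -0.14 and -0.20 without the arrays apart. Abcc3, which exports conjugates to blood, was instead higher by 0.49. The Abcc3 difference came mostly from 1.0% replicates 1, 2 and 3. Replicate 4 lay just above the highest control mouse, and replicates 5 and 6 lay inside the control range. In all, 12 of 17 transport genes were lower, with a median of -0.15.

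Synthesis genes themselves differed little. Cyp7a1, the rate-limiting enzyme of bile acid synthesis, differed by 0.21 (SE 0.5), with control mice spread from 3.24 to 6.27. Cyp8b1, Cyp27a1 and the FXR gene Nr1h4 differed by -0.08, -0.04 and 0.10. Cyp2c70, which makes the muricholic acids of rodents, differed by -0.28. Hnf4a, a master factor of hepatocytes, was higher by 0.37, led by replicates 4 and 5, and by 0.13 without the arrays apart. Acox2, of side chain oxidation, was separated at a difference of 0.16. Of the 18 genes, 13 were lower, with a median of -0.13, or -0.02 without the arrays apart.

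Most fatty acid synthesis genes lay lower. Insulin and SREBP-1c drive this pathway, from acetyl-CoA through acetyl-CoA carboxylase and fatty acid synthase to desaturation and elongation. Of 29 genes of fatty acid and triglyceride synthesis, 22 were lower, and the median was -0.22 and -0.20 without the arrays apart. At an unadjusted p under 0.05, where 4.47% of all genes were lower and 4.45% higher, 9 of the 29 were lower and 3 higher. None passed the adjusted test. Scd1, the stearoyl-CoA desaturase, was among the brightest genes of the liver, at 12.60, 12.70 and 12.86 in control and 11.74, 11.90 and 12.53 at 1.0%, without overlap (difference -0.66, SE 0.17, adjusted p = 0.292). Fasn, fatty acid synthase, read 7.93, 8.69 and 9.22 and 7.03, 8.0 and 8.24 with overlap (difference -0.88, adjusted p = 0.481). Its control replicates 1, 2 and 3, at 9.05, 8.87 and 9.22, lay above control replicates 4, 5 and 6, at 8.31, 8.51 and 7.93. Acaca, Acly and Elovl6, described next, had the same split within control, and Agpat2 did not. The share of this split in the differences was not tested. Srebf1, which encodes SREBP-1, differed by -0.83, and by -0.36 without the arrays apart.

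Along the pathway, Acaca, acetyl-CoA carboxylase, differed by -0.51, Me1, the malic enzyme that supplies NADPH, by -0.49, the elongase gene Elovl6 by -0.65, the acyltransferase gene Agpat2 by -0.46 (-0.20 without the arrays apart) and Insig2, which retains SREBP in the endoplasmic reticulum, by -0.42. A dimmer probe set of Elovl6 went the opposite way, at 1.07. Acly, ATP citrate lyase, differed by -0.42 with an unadjusted p of 0.207. The 3 list members higher at an unadjusted p under 0.05 were the phosphatidate phosphatase genes Lpin1, above, and Lpin2, at 0.56 (0.33 without the arrays apart), and the triglyceride lipase gene Pnpla2, at 0.54. Thrsp, a lipogenic protein gene, was higher by 0.65 with an unadjusted p of 0.0772.

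Most fatty acid oxidation genes lay higher by small amounts. PPAR-alpha switches these genes on in fasting. Of 36 genes, 30 were higher, with a median of 0.11. At an unadjusted p under 0.05, a level at which 4.45% of all genes were higher and 4.47% lower, 6 were higher and none lower. With the arrays apart left out, 9 were higher and 2 lower at that level. Pex11a, a peroxisome division gene, read 7.74, 7.95 and 8.13 in control and 8.06, 8.40 and 8.80 at 1.0%, with a slight overlap (difference 0.49, SE 0.12, adjusted p = 0.265). Eci2, an enoyl-CoA isomerase gene, was higher by 0.36, the carnitine transporter gene Slc22a5 by 0.37 and Cpt1a, which admits fatty acids to mitochondria, by 0.28. Ppara itself differed by -0.49 and its target Fgf21 by -0.52, neither at an unadjusted p under 0.05.

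Of 21 genes of lipid droplets and lipases 14 were higher. At an unadjusted p under 0.05, where 4.45% of all genes were higher and 4.47% lower, 7 were higher and none lower. These counts were 2 higher and 1 lower without the arrays apart, while the median went from 0.09 to 0.20. Pnpla2, which encodes the lipase ATGL, read 5.62, 6.34 and 6.53 in control and 6.47, 6.73 and 7.23 at 1.0%, and its partner on the droplet, Plin5, was higher by 0.42 (0.20 without those arrays). Plin2, the main droplet coat of hepatocytes, was higher by 0.33. Fitm2, which partitions fat into droplets, was separated, at 6.27, 6.50 and 6.64 and 6.69, 6.81 and 6.89 (difference 0.32, adjusted p = 0.365). Cidec, a droplet fusion gene, was higher by 1.78 from a level near the floor and by 0.73 without the arrays apart. Other adipocyte markers were dim, with all 4 measured at a mean level under 4.

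Genes of cholesterol synthesis and uptake were higher in 14 of 19 cases, with a median of 0.10, or 0.20 without the arrays apart. At an unadjusted p under 0.05, where 4.45% of all genes were higher, 5 of the 19 were. Sqle, squalene epoxidase, was higher by 0.99, Idi1 of isoprenoid synthesis by 0.74, the sterol demethylase genes Msmo1 and Cyp51 by 0.44 and 0.41, and Srebf2, which drives the pathway, by 0.49, though by -0.05 in its next brightest probe set. Adjusted p ran from 0.416 to 0.55. Among 19 apolipoprotein genes the median was -0.04, and Apoc2, the cofactor of lipoprotein lipase, was separated downward from 10.73, 10.81 and 10.93 to 10.50, 10.64 and 10.68 (difference -0.21).

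Glycogen and glycolysis genes were lower in 14 of 17 cases, with a median of -0.14, or -0.08 without the arrays apart. Ppp1r3b, the liver subunit that brings protein phosphatase 1 to glycogen and turns glycogen synthase on, read 7.99, 8.22 and 8.62 in control and 6.46, 7.40 and 7.85 at 1.0%. No mouse on 1.0% reached the control range. The difference was -0.99 (SE 0.25, adjusted p = 0.265), and -1.0 without the arrays apart. Another glycogen-targeting subunit gene, Ppp1r3c, differed by -0.73 (adjusted p = 0.343), glycogen phosphorylase, Pygl, by -0.27, fructokinase, Khk, by -0.31 and liver pyruvate kinase, Pklr, by -0.39. Glycogen synthase itself, Gys2, differed by 0.07 (adjusted p = 0.915). Pfkfb3, which raises fructose 2,6-bisphosphate, was higher by 1.5 from a low level (0.92 without the arrays apart).

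In gluconeogenesis, G6pc, the glucose-6-phosphatase that releases glucose, read 9.19, 9.89 and 10.27 in control and 8.33, 8.91 and 9.93 at 1.0% with overlap (difference -0.86, adjusted p = 0.365). Only 1.0% replicates 1, 2 and 3, at 8.33, 8.36 and 8.58, lay below the control range. Replicates 4, 5 and 6, at 9.39, 9.24 and 9.93, lay inside it. Creb1, the cAMP-responsive factor gene, was separated downward, from 5.84, 5.98 and 6.21 to 5.49, 5.67 and 5.72 (difference -0.37), though the mean of its 6 probe sets gave 0.14. Pck1, PEP carboxykinase, differed by -0.28 (adjusted p = 0.743). Foxo1 was higher by 0.26, though other probe sets of like brightness gave 0.14 and -0.05. The median of the 20 genes was -0.03.

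**Figure D3:**
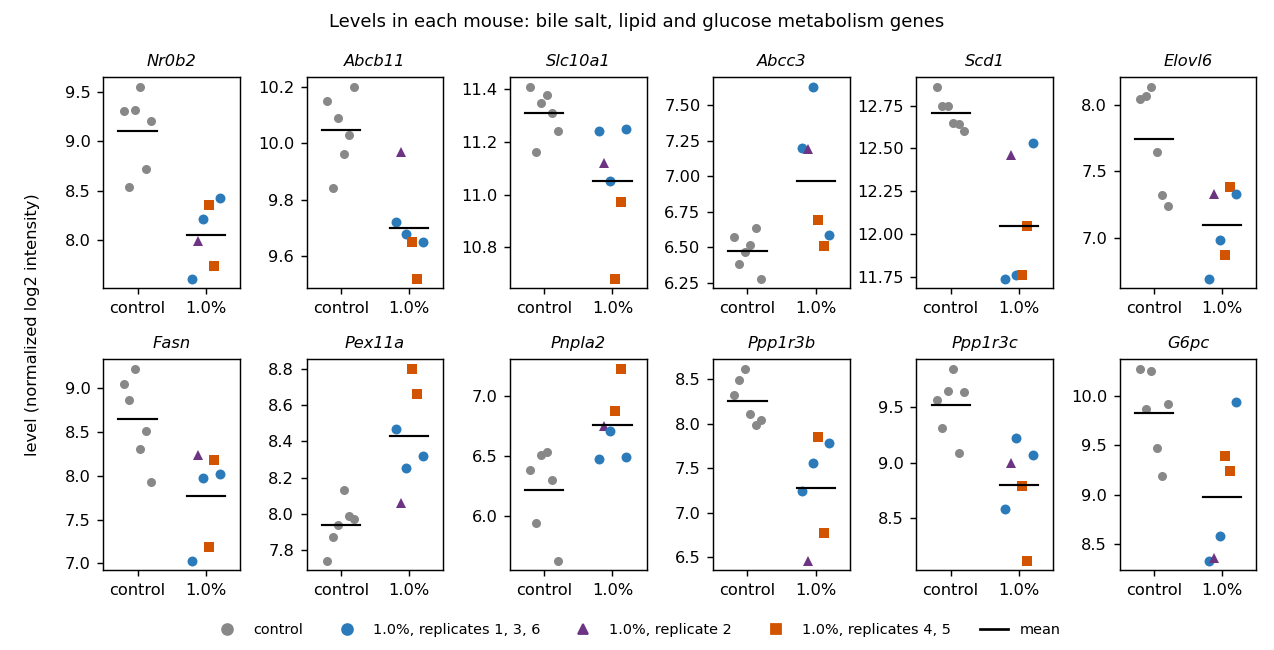
Level of 12 genes of bile salt, lipid and glucose metabolism in each mouse (normalized log2 intensity), control on the left and 1.0% on the right, with bars at the group means and symbols for 1.0% replicates 2, 4 and 5. Nr0b2, Scd1 and Ppp1r3b show no overlap between the groups, whereas Abcb11, Fasn and G6pc do.

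Clock genes differed in both directions. The activators Clock and Arntl (BMAL1) switch on E-box genes such as Dbp and the Per genes, Dbp and Tef switch on D-box genes, and Nfil3 competes with them there. Of 21 clock genes, 7 were higher and 4 lower at an unadjusted p under 0.05, beside 4.45% and 4.47% of all genes. None of the 21 passed the adjusted test. The list median was 0.06, and 0.27 without the arrays apart. The higher ones were led by Usp2, a ubiquitin protease and clock output gene, with 1.59, 1.99 and 3.70 in control and 3.72, 4.56 and 5.63 at 1.0%, the groups parting narrowly at control replicate 3 (3.70) and 1.0% replicate 1 (3.72). Its difference was 2.30 (SE 0.56, adjusted p = 0.263).

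Dbp read 5.22, 6.78 and 8.04 in control and 6.80, 8.68 and 9.40 at 1.0% with overlap (difference 1.84, adjusted p = 0.365, 2.39 without the arrays apart). At 0.1% quercetin it differed from control by -2.12, in the other direction, and at 0.5% by 0.94. Tef was higher by 0.53, Nr1d2, a repressor of Arntl, by 0.48 and the kinase gene Wee1, an E-box target, by 0.89. Among those lower, Arntl read 5.43, 5.72 and 6.05 in control and 3.27, 4.52 and 5.75 at 1.0% (difference -1.21, adjusted p = 0.36), Nfil3 differed by -0.72 (adjusted p = 0.322), Clock by -0.42 (0.01 by a dimmer probe set) and Cry1, a repressor gene, by -0.44. Per1, Per2 and Nr1d1 differed by 0.70, -0.38 and 0.06, none at an unadjusted p under 0.05.

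Per3 is a known D-box gene, and its start (minus strand, chr4:151044616-151044915, RefSeq, GRCm38.p6) is shown for that reason. Capitals mark TTATGTAA or TTACGTAA on either strand.
Per3: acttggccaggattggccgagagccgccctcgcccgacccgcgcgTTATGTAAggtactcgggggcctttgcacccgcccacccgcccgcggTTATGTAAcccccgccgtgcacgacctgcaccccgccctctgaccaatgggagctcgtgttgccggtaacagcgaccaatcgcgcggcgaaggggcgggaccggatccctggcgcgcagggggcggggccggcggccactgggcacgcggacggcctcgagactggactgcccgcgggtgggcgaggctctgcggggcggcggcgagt
It held 2 matches, and the starts of Dbp, Tef and Usp2 held 0. Of the 32851 promoters 1.06% held at least 1 and 0.0244%, or 8 promoters, at least 2. The E-box letters CACGTG had 0 matches at the starts of Dbp, Usp2 and Per3 and 1 at each of 2 starts of Tef, and 7.15% of promoters held at least 1. Per3 read 1.01, 1.81 and 3.31 in control and 2.90, 3.79 and 4.34 at 1.0% (difference 1.73, SE 0.52, adjusted p = 0.365). It was dim, and its 6 probe sets disagreed: 1 other gave 1.35 and another -1.11, the opposite direction, at an unadjusted p of 0.0378.

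**Figure D4:**
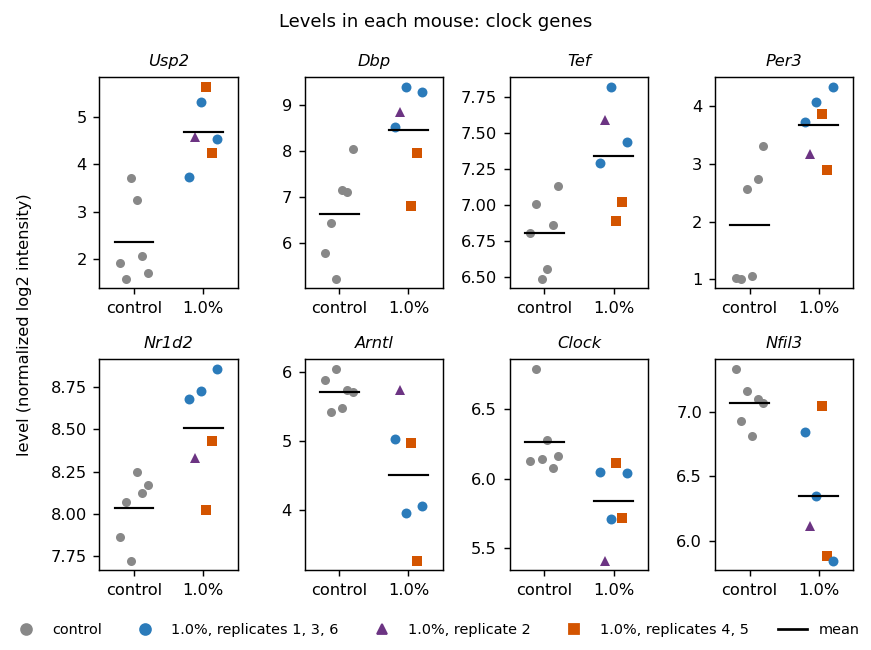
Level of 8 clock genes in each mouse (normalized log2 intensity), control on the left and 1.0% on the right, with bars at the group means and symbols for 1.0% replicates 2, 4 and 5. Usp2, Dbp, Tef, Per3 and Nr1d2 have higher means at 1.0%, and Arntl, Clock and Nfil3 lower ones, and only Usp2 is without overlap.

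Nrf2 target and glutathione genes were mixed. Of 31 genes, 18 were higher, and the median was 0.04. At an unadjusted p under 0.05, 7 were higher and 4 lower, beside 4.45% and 4.47% of all genes. Ephx1, microsomal epoxide hydrolase, was separated, at 9.32, 9.42 and 9.58 in control and 9.64, 9.70 and 9.96 at 1.0% (difference 0.32, adjusted p = 0.365). Gstm4, a glutathione transferase gene, was separated too (difference 0.24). Ugdh, which makes the UDP-glucuronic acid used in glucuronidation, was higher by 0.66 with a slight overlap (0.36 without the arrays apart), and Gss, glutathione synthetase, by 0.29. Srxn1, sulfiredoxin, was higher by 1.35, and by 0.5 without the arrays apart. In contrast Gclc, the rate-limiting subunit of glutathione synthesis, differed by -0.29, though its other, somewhat dimmer probe set gave 0.002. Carbonyl reductase, Cbr1, differed by -0.29 and Nfe2l2, the Nrf2 gene itself, by -0.40 (-0.21 without the arrays apart). Nqo1 and Hmox1, usual readouts of Nrf2, differed by 0.12 and -0.16 (adjusted p = 0.95 and 0.869). None of 16 antioxidant enzyme genes had an unadjusted p under 0.05, near the share of all genes in a list this short, and their median was 0.03.

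Lists of xenobiotic receptor targets differed in direction. Of 10 aryl hydrocarbon receptor genes 7 were higher, with a median of 0.14 (0.09 without the arrays apart), and 1, Nfe2l2, was lower at an unadjusted p under 0.05. Cyp1a1 and Cyp1a2, the usual readouts of the aryl hydrocarbon receptor, differed by 0.14 and -0.09. Of 22 targets of CAR and PXR, 15 were lower, with a median of -0.09. Cyp3a44 read 3.66, 4.43 and 4.51 in control and 2.62, 2.95 and 3.86 at 1.0% with a slight overlap (difference -1.12, adjusted p = 0.263). Cyp3a genes are near-identical copies whose probes may share signal. Ces2a, a carboxylesterase gene, was separated downward at -0.29, while Nr1i2, which encodes PXR, was higher by 0.44 (adjusted p = 0.36). Cyp2b10 and Cyp3a11, the usual readouts of the 2 receptors, differed by -0.04 and -0.11. Among 21 genes of flavonoid conjugation and efflux, 16 were lower, with a median of -0.06 (0.003 without the arrays apart), and only Abcc3, above, and the glucuronosyltransferase gene Ugt2b37, at 1.77 (0.65 without the arrays apart), were higher at an unadjusted p under 0.05.

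Chaperone genes were mixed. Of 19 heat shock genes 12 were higher, with Hspb8, a small heat shock protein gene, higher by 0.54 and Dnajb1 and Dnajb4 lower at an unadjusted p under 0.05. Dnajb1, the HSP40 co-chaperone, was separated, with 6.90, 7.29 and 9.03 in control and 6.06, 6.43 and 6.64 at 1.0%, and control replicate 2, at 9.03, stood far above its group (difference -1.14, adjusted p = 0.319). A second probe set of Dnajb1, of nearly equal brightness, gave 0.20. Dnajb4 differed by -0.65, and the list had a median of 0.15 with all arrays and -0.14 without those apart, a change of sign. In the unfolded protein response 21 of 29 genes were lower, with a median of -0.07, and -0.23 without the arrays apart. With all arrays 2 were higher and 4 lower at an unadjusted p under 0.05, beside 4.45% and 4.47% of all genes. Without those arrays 2 were higher and 10 lower. Its foldases Pdia6, Pdia4, Pdia3 and Calr differed by -0.27, -0.48, -0.21 and -0.21, while Xbp1, its transcription factor gene, was higher by 0.67 (0.39 without them). Of 23 immediate early genes 14 were higher, 1 of them and 2 lower ones at an unadjusted p under 0.05. Jun, an immediate early transcription factor gene, differed by -0.96 (adjusted p = 0.365).

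Mitochondrial genes differed little. Of 35 respiratory chain and ATP synthase genes, 30 were lower by small amounts, with a median of -0.04. None of the 35 had an unadjusted p under 0.05, where 4.45% of all genes were higher and 4.47% lower. In coenzyme Q synthesis, Coq8a, an atypical kinase gene, read 8.70, 8.94 and 9.05 in control and 7.72, 8.25 and 8.73 at 1.0% with a slight overlap (difference -0.67, adjusted p = 0.265), and its paralog Coq8b was higher by 0.48. Of 24 sirtuin, AMPK and mitochondrial biogenesis genes 12 were higher, with a median of -0.01. Sirt1 was higher by 0.44 (adjusted p = 0.531), and AMPK subunit genes Prkaa1 and Prkag1 by 0.32 and 0.39, while Esrra, a mitochondrial biogenesis factor gene, differed by -0.45.

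Amino acid and iron genes held a few further differences. Among 29 urea cycle and amino acid genes, Got1, cytosolic aspartate aminotransferase, was separated downward, from 7.82, 8.10 and 8.69 to 7.47, 7.59 and 7.75 (difference -0.54, adjusted p = 0.453), and Hal, histidase, differed by -0.41 (-0.22 without the arrays apart). Hamp, which encodes the iron hormone hepcidin, was higher by 0.63, and Id1, a BMP target like Hamp, by 0.98 (adjusted p = 0.325). None of 14 heme genes and none of 17 p53 targets had an unadjusted p under 0.05 at 1.0%, where 4.45% of all genes were higher and 4.47% lower. In lists this short 0 lies near that share. Cdkn1a, the p21 gene, was high in 1.0% replicates 4 and 5 alone, at 7.97 and 6.22. Of 26 cell cycle genes 20 had a mean level under 4, and Ccnd1, cyclin D1, was higher by 0.47.

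Across the 37 pathway lists, the highest medians were those of the interleukin-6 and glucocorticoid lists, and the lowest those of the cell cycle list, mostly dim, and of fatty acid synthesis. Without the arrays apart the highest were those of the interleukin-6 and clock lists and the lowest those of the thyroid hormone list, at -0.24, and the unfolded protein response. Growth hormone and sex-biased genes had a median of -0.11 over 21 genes, and thyroid hormone genes one of -0.10 over 13. Markers of sinusoidal endothelium, stellate cells and cholangiocytes had 0 of 9, 0 of 10 and 0 of 5 genes at an unadjusted p under 0.05. Of all genes 4.45% were higher and 4.47% lower at that p, so 0 lies near that share in lists this short. In B cell, T or NK cell, exocrine pancreas and adipocyte lists 1 of 5, 1 of 7, 1 of 6 and 1 of 4 markers reached that p. These were Ighm, an immunoglobulin heavy chain gene (-0.45, but 1.12 by a dimmer probe set), the T cell receptor subunit gene Cd3d (-1.12), colipase, Clps (0.94), and Cidec, above, the last 3 at a mean level under 4. Each went against its list: the medians of those lists were 0.30, 0.31, -0.17 and -0.24.

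**Figure D5:**
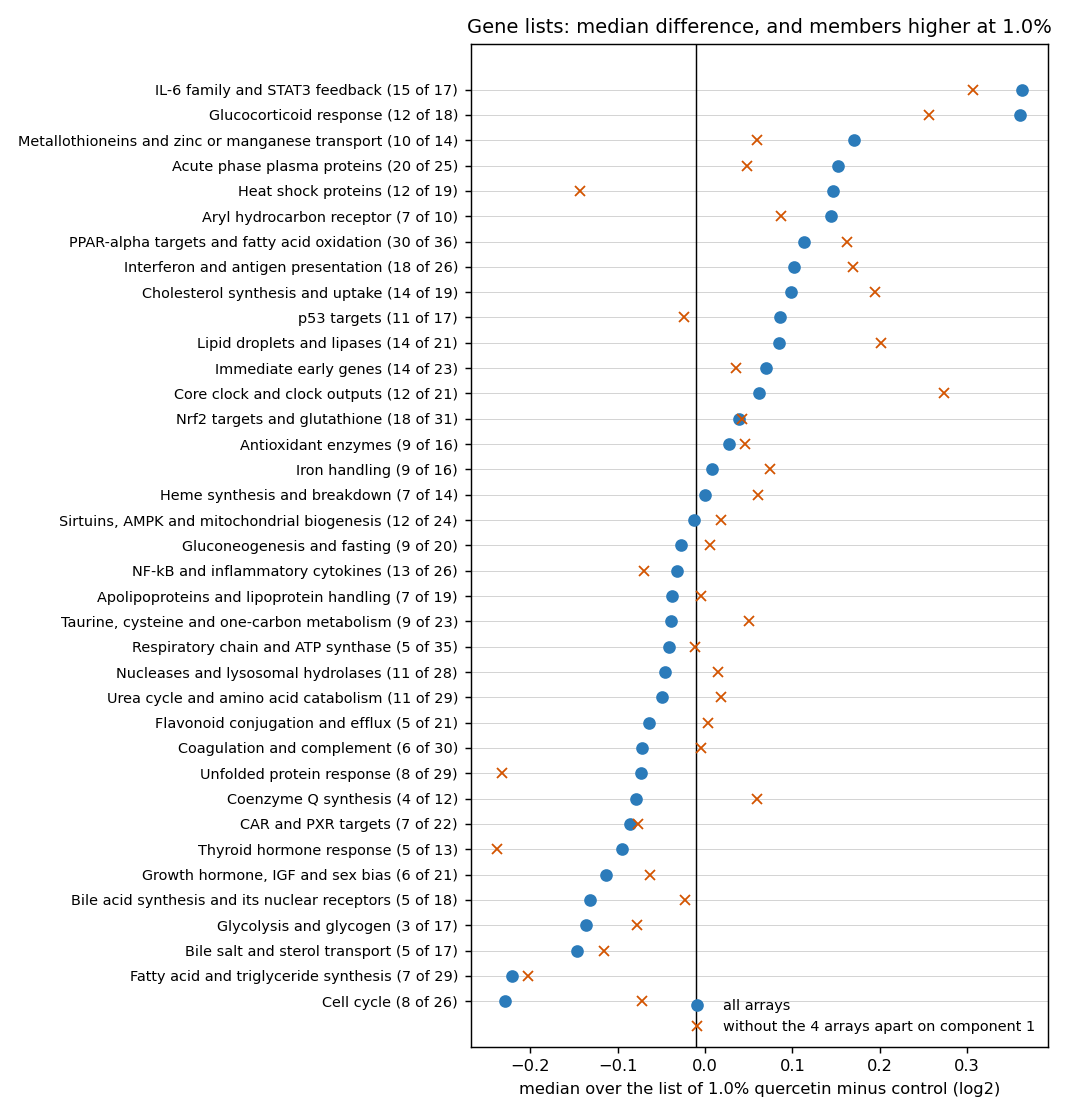
Median difference between 1.0% quercetin and control (log2) over each of the 37 pathway lists, with all arrays (dots) and without the 4 arrays apart on the first component (crosses). Brackets give the members higher at 1.0% of those measured, and the vertical line is the median of all genes. The fatty acid synthesis list stays near -0.20 either way, while heat shock and clock lists move by more than 0.2.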

How the data were processed

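Liver RNA of 24 mice was measured on 1 Affymetrix array each, and the 6 arrays at 1.0% quercetin and 6 control arrays were grouped by their labels. What the authors deposited is a single table of linear intensity, with 45101 probe sets. Labelling was one-cycle cDNA synthesis and transcription to biotin-labelled cRNA, per the labels' protocols. How background was corrected, probes summarised and arrays scaled is not given in the sources used here. Medians of the arrays spanned 4.78 to 7.58, so values were taken as log2(value + 1) and quantile-normalized, which removes any change shared by all genes. Of the probe sets, 34945 had 1 gene symbol, 932 had several symbols and stayed out, and 9211 are absent from the platform annotation. A gene ID of the RefSeq table of GRCm38.p6 matched 34754 of those used. The probe set with the highest mean over 24 arrays stood for each of 18193 genes.

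All 24 arrays entered 1 fit of 4 groups in limma 3.58.1 under R 4.3.3 (lmFit, eBayes, two-sided, Benjamini-Hochberg at 0.05), tested on simulated data. Named genes were those that passed, up to 15 separated genes in each direction with a mean of at least 4 in the higher group and the smallest p, up to 5 members of each list by p, and the 8 largest differences in each direction with unadjusted p under 0.05 and a mean of at least 6 in the higher group. List members with a known role could be added, and clone names were not named. The lists and the rule were chosen with earlier results of these data known. No list was tested as a set. Promoter sequences came from the RefSeq table, and motifs were counted on both strands. Arrays were separate mice and 0 pairs held identical values. Precision is limited by how many arrays each group has. Alternatives covered normalization, the pseudocount, probe sets, filters, eBayes options, array weights, blocks, the arrays in the fit, a fold threshold and each array left out. The fits without arrays that stood apart were added after the data were seen.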

Additional observations from a re-analysis of the deposited data

Results flagged for a closer look

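For each gene named in the text, the 6 control mice and the 6 mice on 1.0% were searched for a mouse whose level stood apart from its group by Dixon's ratio. Of 356 groups, 17 held such a mouse, and chance flags about 1 group in 20.

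Control replicate 2 stood apart most often. It was high for Dnajb1, at 9.03 against 7.49 for the next mouse, for Tsc22d3 at 8.41, for Hspb8 at 8.53, for Atp8b1 at 7.25 and for Clock at 6.79, and low for Grn at 8.45. Control replicate 3 was high for Cyp2b10 at 4.56 and low for Fam89a at 6.03, and control replicate 1 was low for Cidec at 0.49.

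At 1.0%, replicate 4 was high for Plin5 at 9.19 and for Tat at 10.91, and replicate 5 was low for Dusp1 at 7.29. Replicate 2 was low for Eci2 at 9.38, for Wee1 at 3.79 and for Zbtb38 at 4.07, and high for Ighm at 7.02. Replicate 1 was high for Cd3d at 3.01. Replicates 2, 4 and 5 are the arrays that stood apart on the principal components.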

How the results depend on the processing

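Counts of calls were small and depended on the setting. Of 3 genes higher and 1 lower in limma, no normalization between arrays left 0 and 0, with 851 higher and 250 lower at an unadjusted p under 0.05. Centring on array medians left 1 higher, the mean of all probe sets gave 5 higher and 2 lower, the 12 arrays alone 0 higher, a fold of at least 1.5 gave 0 and 0 (61 and 31 unadjusted), and leaving out genes with a mean under 4, or eBayes with trend and robust options, gave 2 lower. Leaving out 1 array at a time gave 3 to 5 higher and 1 to 2 lower. The 4 genes passed in all 12 of these fits, at adjusted p up to 0.0294. Over the other alternatives, Csad and Dnase2a passed in 8 of 13, Gpr146 in 9 of 13 and Carlr in 8 of 12, and Carlr did not pass with a pseudocount of 16 (adjusted p = 0.0742). Without the 4 arrays apart on the first component 0 and 0 genes passed, and without 1.0% replicate 2 as well 0 higher and 1 lower, Cfap43, named here after its values were seen. These 2 fits were also chosen after the data were seen.

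The replicate number does not pair the mice: same-numbered arrays correlated at -0.0266 to 0.00491 and 0 arrays correlated best with their own number. With the replicate number as a block 3 genes were higher and 1 lower. Sets of 3 replicates as a random effect gave the same counts, with a consensus correlation of 0.0445.

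Separated genes numbered 145, and 34 without normalization between arrays. Of the genes eligible for naming, 141 had an unadjusted p under 0.05. In the same direction 93 did so without normalization between arrays, and 92 after the least variable genes were left out, which removes some of them from the test. The number of the 48 lists with a median above 0 was 21, and 18 to 24 with 1 array left out. Over the alternatives 26 lists changed the sign of their median at least once and 22 did not, and the cause was not tested.

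Named genes whose sign turned had small differences, except Creb1. That gene, separated downward at -0.37, gave 0.14 with the mean of all probe sets. Cdo1 and Gys2 gave -0.00449 and -0.00355 with centring. With 1 array left out, Cyp1a1 ran from -0.06 (without 1.0% replicate 2) to 0.31, Cyp7a1 from -0.08 (without control replicate 3) to 0.52, Cyp8b1 from -0.19 to 0.05 (without 1.0% replicate 4), Cyp2b10 from -0.36 to 0.21 (without control replicate 3) and Nr1d1 from -0.07 (without control replicate 5) to 0.18. Without the arrays apart on the first component Cyp1a2 gave 0.08 and Cyp8b1 0.23, and without 1.0% replicate 2 as well 0.02 and 0.16. Cyp2b10 gave 0.08 without normalization, 0.05 with a pseudocount of 16 and 0.07 with the mean of all probe sets, and Nr1d1 gave -0.01 with centring. Dim genes, with a signal near the floor of the array, are the least certain.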

Other observations

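Further genes were separated between the groups, with levels in every mouse on 1.0% above those of all control mice. Gin1, a transposon-derived integrase gene, read 4.07, 4.23 and 4.58 (lowest, median and highest) in control and 4.79, 5.06 and 6.09 at 1.0%, with replicates 4 and 5 at the top (log2 difference 1.03, SE 0.24, limma adjusted p = 0.263), though another probe set gave 0.17. Eri2, an exonuclease gene, was higher by 0.96, Telo2, whose product stabilises PI3-kinase-related kinases such as mTOR, by 0.67 (but -0.16 by a dimmer probe set), Sdad1, of ribosome biogenesis, by 0.62 and Tbl1xr1, a subunit of nuclear receptor corepressor complexes, by 0.38. Their adjusted p ran from 0.247 to 0.322, so none passed.

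Among the genes separated downward were Tmcc1, of the endoplasmic reticulum (-0.68), Lnx2, a ubiquitin ligase gene (-0.67), Ankrd10 (-0.98, and -0.13 by another probe set), Cep164, of the centriole (-0.57), and the transcription factor gene Zbtb38 (-0.44), at adjusted p from 0.222 to 0.269. Tsc22d1, a leucine zipper gene bright in this liver, read 11.05, 11.28 and 11.54 in control. At 1.0%, replicates 4 and 5 held 8.71 and 7.96, the lowest of the 12, replicates 3 and 6 lay below the control range by less, and replicates 1 and 2 within it. Its difference of -1.13 was -0.23 without the 4 arrays apart on the first component. Fam89a differed by -0.91 and by -0.48 without those arrays.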
